A study of Homo sapiens with 7 samples.

Results

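The 10 genes described here, of the HSP90 chaperone machine, the small heat shock proteins and the heat shock factors, were taken by symbol from a count table of 59251 gene rows. They were the cytosolic HSP90 genes HSP90AA1 and HSP90AB1, the cochaperone genes AHSA1 and CHORDC1, the small heat shock protein genes HSPB1, HSPB8 and CRYAB, the cochaperone gene BAG3, and the transcription factor genes HSF1 and HSF2. All 10 were present and all 10 passed the filter on low counts, which kept 26062 rows. The libraries came from H9 cells, an established human embryonic stem cell line, kept in RSeT, a medium for the naive pluripotent state. The 3 DJL1 libraries are from cells transfected with guide RNA plasmids under that name, and the 4 CTRL libraries are their controls. The title of the series concerns LINE1 elements at the distal junctions that flank the ribosomal DNA repeats. Neither the effector directed by the guides nor the content of the control transfection is named in the sources. Every library, control or not, was from cells given 10 nM DZNep, which lowers histone methylation, and 5 nM TSA, a histone deacetylase inhibitor. For the initial 16 h every culture also had the CEPT mix of Chroman 1 (50 nM), Trans-ISRIB (0.7 µM, an inhibitor of the integrated stress response), Emricasan (5 µM) and polyamine, and cells were taken 48 h after transfection. The labels mention cell sorting and the design text does not, so whether cells were sorted is unclear. All libraries come from 1 cell line, and whether the replicates are separate cultures is not stated, so each p-value reflects library-to-library spread that may be technical.

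HSP90 is an ATP-driven chaperone dimer that completes the folding of kinases, hormone receptors and other clients, and cochaperones set the pace of its cycle. Small heat shock proteins bind unfolding proteins without ATP and hold them for refolding or disposal, and BAG3 links them to HSP70 and to autophagy. In unstressed cells HSF1 is held inactive by chaperones. When unfolded proteins occupy those chaperones, HSF1 forms trimers, binds heat shock elements (arrays of inverted GAA units) and raises the transcription of chaperone genes. Pluripotent stem cells are known to keep a high chaperone capacity.

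Promoter letters are shown first because heat shock elements are where HSF1 binds. Whether these letters bear on the RNA changes below was not tested. The windows are RefSeq promoters (GRCh38.p14) from 250 bases before to 50 bases after a start, and 8 of the 10 genes matched by symbol, with 13 windows. No window was found for CRYAB or HSF1. Searched on both strands were 3 alternating units (GAANNTTCNNGAA or TTCNNGAANNTTC) and the 2-unit forms contained in them (GAANNTTC or TTCNNGAA). Of 35116 windows in the table, 0.49% held the 3-unit form and 13.5% a 2-unit form. Each line runs 5′ to 3′ on the strand of the gene, with the 2-unit matches in capitals, so that overlapping matches join into 1 capital run.
HSP90AA1: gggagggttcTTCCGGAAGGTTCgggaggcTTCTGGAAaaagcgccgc
HSP90AB1: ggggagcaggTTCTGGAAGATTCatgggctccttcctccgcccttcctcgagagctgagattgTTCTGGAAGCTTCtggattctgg
CHORDC1: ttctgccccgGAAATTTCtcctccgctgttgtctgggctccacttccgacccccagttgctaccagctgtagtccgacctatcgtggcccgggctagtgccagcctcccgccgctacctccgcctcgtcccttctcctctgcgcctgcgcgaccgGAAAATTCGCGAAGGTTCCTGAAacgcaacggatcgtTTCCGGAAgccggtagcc
HSPB1: cttaacgagaGAAGGTTCcagatgaggg
HSPB8: catcacctccGAATATTCctgtgacagg

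These stretches lie at chr14:102087095-102087142 (HSP90AA1, minus strand), chr6:44247768-44247853 (HSP90AB1, plus), chr11:90223055-90223264 (CHORDC1, minus), chr7:76302481-76302508 (HSPB1, plus) and chr12:119178833-119178860 (HSPB8, plus), all before the start. The HSP90AA1 window held 1 match of 3 units, 88 bases before the start. The HSP90AB1 window held 2 separate matches of 3 units, at 165 and 112 bases before the start, and CHORDC1 held 3 that overlap in a single run between 60 and 38 bases before it. HSPB1 and HSPB8 had 2-unit matches only, HSPB8 also one that begins 4 bases after its start. The windows of BAG3, HSF2 and AHSA1, the upstream window of HSP90AA1 and the other windows of HSP90AB1 held neither form. A match describes these letters only, and no match says nothing of the factor.

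Library totals ran from 62277489 to 76691997 counts in CTRL and from 34634882 to 37795742 in DJL1, and the spread between libraries (edgeR's common coefficient of variation) was 3.45% in CTRL and 13.8% in DJL1. Depth, spread and group therefore cannot be told apart. The pluripotency marker POU5F1 ranged from 5248 to 5397 CPM (counts scaled to a common library size) in CTRL and from 5153 to 5660 CPM in DJL1, and none of the 12 pluripotency markers was at 0 over the libraries. KLF17, a naive-state factor, went from 1.64 to 2.99 CPM in CTRL to 7.09 to 13.2 CPM in DJL1, the widest log2 fold change of the 12 (1.92). Of these 12 markers 5 were higher in DJL1 and 6 lower, where 27.0% of all tested genes were higher and 25.1% lower. The 5 higher were KLF17, SUSD2 (log2 fold change 1.00), DNMT3L (0.93), KLF4 (0.68) and DPPA3 (0.37), and POU5F1 (0.01) was not called. The 6 lower were DPPA4 (log2 fold change -0.66), NANOG (-0.50), DPPA5 (-0.49), SOX2 (-0.39), LIN28A (-0.23) and TFCP2L1 (-0.21). Of markers for other cells, 6 of 8 tested fibroblast markers and 8 of 8 tested trophectoderm markers were higher in DJL1 and 0 were lower in either list (edgeR, adjusted p under 0.05, and also 0 lower at an unadjusted p under 0.05, by DESeq2 and by limma-voom). The summed level of the 10 fibroblast markers was 526 to 544 CPM in CTRL and 804 to 925 CPM in DJL1, mostly from COL1A1 (log2 fold change 1.01) and COL1A2 (0.39). At lower levels COL3A1 (1.94), PDGFRB (1.41) and FBN1 (1.29) also rose. PDGFRA, with a CTRL mean of 33.3 CPM, had a log2 fold change of -0.05 and was not called, and neither was POSTN (-0.33). LUM and DCN, untested, had no more than 0.171 CPM in any library. The 10 trophectoderm markers summed to 13.0 to 16.3 CPM and 40.5 to 51.6 CPM. GATA3 (2.54) and GATA2 (1.90) rose among them, and CGA, untested, had no more than 0.143 CPM. The part of these markers in the results on the 10 genes was not tested. In bulk RNA, more cells of a type and more RNA per cell cannot be told apart.

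BAG3, HSP90AA1 and HSPB1 rose in DJL1, by 3.62-fold, 1.96-fold and 1.63-fold, and the other 7 genes stood at 0.881-fold to 1.11-fold of CTRL. With edgeR's quasi-likelihood F test, adjusted by Benjamini-Hochberg over all 26062 genes at 0.05, 4 of the 10 were higher (BAG3, HSP90AA1, HSPB1 and HSP90AB1) and 2 were lower (HSF1 and HSPB8). Over all tested genes 27.0% were higher and 25.1% lower, together 52.0%, so 6 called of 10 is near that background. The groups did not overlap for 8 of the 10 genes, against 53.6% of all tested genes. The median log2 fold change of the 10 was 0.14, against 0.01 over all tested genes. BAG3 was the only one of the 10 past 2-fold, a size of increase that 10.7% of tested genes reached with a call. All these values are relative to a scaled library, so a change in total RNA per cell could not be seen.

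**Figure D1:**
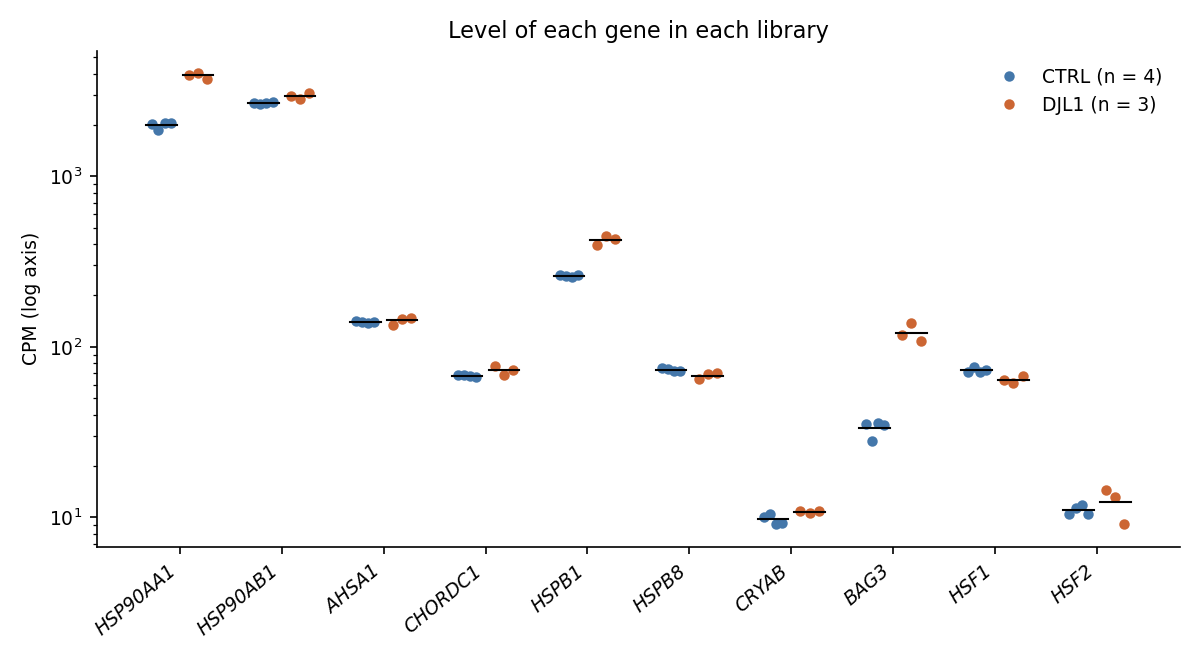
CPM on a log axis for the 10 genes in each library, with CTRL in blue (n = 4), DJL1 in orange (n = 3) and a bar at each group mean. BAG3, HSP90AA1 and HSPB1 stand clear of CTRL in DJL1, while HSF2 and AHSA1 overlap between the groups.

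HSP90AA1 (chromosome 14, 102080742 to 102139749, GRCh38.p14) encodes HSP90 alpha, the more stress-inducible of the cytosolic isoforms. Its level in CTRL replicates 1 to 4 was 2016, 1865.5, 2047 and 2051 CPM, and in DJL1 replicates 1 to 3 it was 3945, 4018 and 3739 CPM. The DJL1 libraries all lay far above the CTRL libraries, of which replicate 2 was the lowest. The means were 1995 ± 87.7 CPM (SD, n = 4) and 3901 ± 145 CPM (SD, n = 3), and the log2 fold change was 0.97 ± 0.04 (SE, edgeR, adjusted p = 1.57e-10). Its value lay at percentile 87.1 of the log2 fold changes of all tested genes.

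HSP90AB1 (chromosome 6, 44246194 to 44253883) encodes HSP90 beta, the constitutive isoform, and was among the most abundant rows of the table. CTRL libraries held 2705, 2662, 2705 and 2719 CPM, and DJL1 libraries 2949, 2833 and 3092 CPM. The groups did not overlap, but the lowest DJL1 library was only a little above the highest CTRL library. From 2698 ± 24.8 to 2958 ± 130 CPM the log2 fold change was 0.13 ± 0.04 (SE, edgeR, adjusted p = 0.00865), at percentile 58.3 of all tested genes.

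Because both genes were counted in the same library, their ratio does not depend on the scaling. HSP90AA1 counts stood to HSP90AB1 counts as 0.745, 0.701, 0.757 and 0.754 in CTRL and as 1.34, 1.42 and 1.21 in DJL1. HSP90AB1 thus gave more counts than HSP90AA1 in every CTRL library and fewer in every DJL1 library. The log2 ratio went from -0.44 ± 0.05 (SD, n = 4) to 0.40 ± 0.12 (SD, n = 3), a difference of 0.84 (exact permutation test over the 7 libraries, 2-sided by doubling the smaller tail, p = 0.0571). That is the smallest p the doubled tail can give, and so it cannot reach 0.05. Comparing absolute differences, a form added once the data had been seen, the exact test gave p = 0.0286, the smallest of that form. Over single libraries left out, the difference ran from 0.78 to 0.90.

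**Figure D2:**
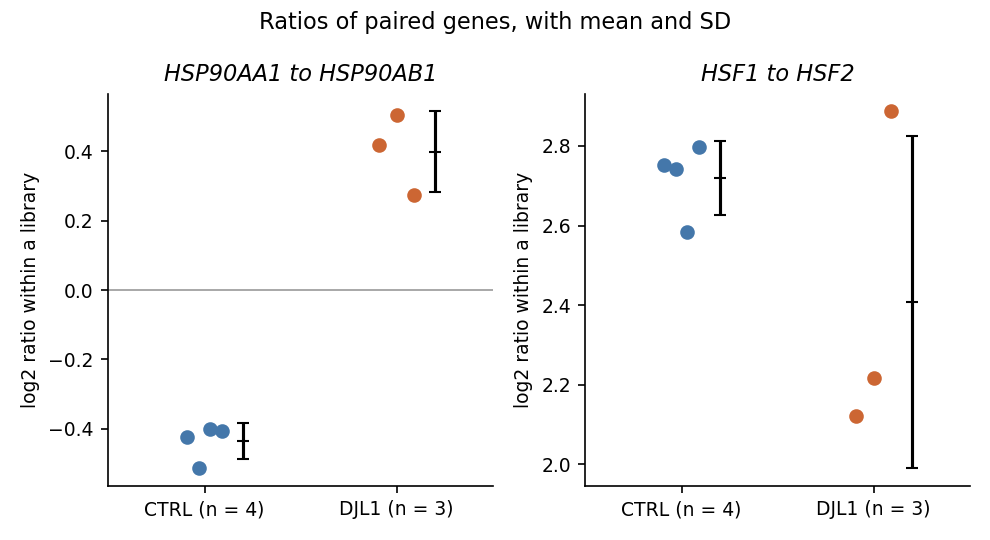
Log2 ratio of HSP90AA1 to HSP90AB1 (left) and of HSF1 to HSF2 (right) in each library, on separate vertical axes that do not start at 0, with the mean and SD beside the points. The HSP90 ratio is below 0 in the 4 CTRL libraries and above 0 in the 3 DJL1 libraries, while for the HSF ratio DJL1 replicate 3 lies above every CTRL library and the other DJL1 libraries below.

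The isoforms also came level per length. Divided by the median length of their protein-coding transcripts in GENCODE 29, HSP90AB1 had a level of 1032 ± 9.51 CPM per kb in CTRL and HSP90AA1 579 ± 25.5 CPM per kb. In DJL1 the levels were 1132 ± 49.7 and 1132 ± 42.0 CPM per kb, closer together than their spread. Next in CTRL came HSPB1 at 363 ± 3.20 and AHSA1 at 119 ± 1.55 CPM per kb. HSF1 (34.3 ± 1.07), HSPB8 (34.1 ± 0.82) and CHORDC1 (33.8 ± 0.36 CPM per kb) did not differ beyond their spread. BAG3 stood at 13.0 ± 1.43, CRYAB at 9.96 ± 0.63 and HSF2 at 4.25 ± 0.25 CPM per kb. In DJL1 BAG3 was at 47.0 ± 5.87 CPM per kb, with CHORDC1 at 36.5 ± 2.24 and HSF1 at 30.2 ± 1.59 CPM per kb. The place of some genes depends on the transcript length used. CHORDC1 ran from 14.1 to 120.0 CPM per kb in CTRL between its longest and shortest transcript, and CRYAB from 8.69 to 17.9.

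AHSA1 and CHORDC1 encode cochaperones of the HSP90 ATPase. AHA1, the product of AHSA1, speeds ATP hydrolysis, and CHORDC1 (also called morgana) binds HSP90 through CHORD and CS domains. AHSA1 (chromosome 14, 77457867 to 77469472) held 138 to 142 CPM in CTRL and 135, 146 and 148 CPM in DJL1, with the groups overlapping. Its log2 fold change was 0.03 ± 0.04 (SE, edgeR, adjusted p = 0.618), and over the alternatives the value ran from -0.01 to 0.06. CHORDC1 (chromosome 11, 90200429 to 90223049) held 66.8 to 68.5 CPM in CTRL and 77.6, 68.7 and 73.2 CPM in DJL1. All DJL1 values were above CTRL, replicate 2 by a hair, and the log2 fold change of 0.11 ± 0.05 missed the threshold (edgeR, adjusted p = 0.0503). CHORDC1 passed it in 6 of 19 alternatives, with an adjusted p of 0.00716 when DJL1 replicate 2 was left out and 0.269 when replicate 1 was.

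The larger changes outside HSP90AA1 were in BAG3 and HSPB1. BAG3 (chromosome 10, 119651380 to 119677819) encodes a nucleotide exchange factor of HSP70 that joins small heat shock proteins to autophagy receptors. CTRL libraries held 35.3, 27.9, 35.6 and 34.9 CPM and DJL1 libraries 117, 137 and 108 CPM. Replicate 2 was the low library within CTRL and replicate 2 the high one within DJL1, and the groups were far apart. The means were 33.4 ± 3.68 CPM (SD, n = 4) and 121 ± 15.1 CPM (SD, n = 3), and the log2 fold change was 1.86 ± 0.09 (SE, edgeR, adjusted p = 6.85e-09), at percentile 96.7 of all tested genes. Without CTRL replicate 2 it was 1.77 and without DJL1 replicate 2 it was 1.74, both called.

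HSPB1 (chromosome 7, 76302673 to 76304292) encodes HSP27, a small heat shock protein that forms large oligomers and binds actin. CTRL libraries held 263, 259, 258 and 262 CPM and DJL1 libraries 395, 447 and 431 CPM. CTRL was tight and every DJL1 library lay above it. The means were 260.4 ± 2.30 and 424 ± 26.7 CPM, and the log2 fold change was 0.70 ± 0.04 (SE, edgeR, adjusted p = 3.73e-09), at percentile 81.5. Removing any single library left its log2 fold change between 0.65 and 0.74.

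HSPB8 and CRYAB, the other small heat shock protein genes of the 10, were not called higher. HSPB8 (chromosome 12, 119178931 to 119194746) encodes HSP22, the partner with which BAG3 forms a complex. It held 75.6, 73.7, 72.2 and 71.7 CPM in CTRL and 64.6, 69.1 and 69.8 CPM in DJL1. The groups did not overlap, and the log2 fold change was -0.11 ± 0.04 (SE, edgeR, adjusted p = 0.0433). HSPB8 lost its call in 11 of 19 alternatives, where adjusted p reached 0.135, among them the removal of any single CTRL library or of DJL1 replicate 1. BAG3 thus rose, and its partner did not rise under any alternative.

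CRYAB (chromosome 11, 111908564 to 111923740) encodes alpha-B crystallin, a small heat shock protein of lens and muscle. It held 10.1, 10.4, 9.17 and 9.25 CPM in CTRL and 10.8, 10.6 and 10.8 CPM in DJL1. DJL1 lay just above CTRL, with a log2 fold change of 0.15 ± 0.08 (SE, edgeR, adjusted p = 0.155), not called in any of the 19 alternatives. Up to 252 bases of a CRYAB exon overlap HSPB2 on the other strand in GENCODE 29. The CTRL level of HSPB2 was 7.06 ± 0.58 CPM, and its DJL1 level 6.67 ± 1.07 CPM. The strand setting of the counting is not given in the sources used here, so reads of such overlaps may have been placed on either gene. Lens markers gave 1 higher and 1 lower of 8 tested, with a summed level of 20.4 to 21.6 CPM in CTRL and 21.1 to 23.8 CPM in DJL1. Muscle markers gave 4 higher and 2 lower of 9 tested. Their summed level was 122 to 123 CPM in CTRL and 117 to 139 CPM in DJL1. Over all tested genes the shares were 27.0% higher and 25.1% lower.

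HSF1 and HSF2 encode the stress-activated transcription factor and its relative, which can join it in mixed trimers. HSF1 (chromosome 8, 144291604 to 144314720) held 71.2, 75.8, 70.9 and 73.0 CPM in CTRL and 63.5, 61.0 and 67.7 CPM in DJL1. Every DJL1 library was below every CTRL library. HSF1 fell from 72.7 ± 2.28 to 64.1 ± 3.38 CPM, a log2 fold change of -0.18 ± 0.05 (SE, edgeR, adjusted p = 0.00389), at percentile 33.9 of all tested genes. This is the RNA of HSF1, whose activity is set mainly on the protein. An HSF1 exon shares up to 139 bases with DGAT1 on the other strand, which had 24.7 CPM (CTRL) and 22.3 CPM (DJL1). It also shares 133 bases with the antisense gene AC233992.1, and CHORDC1 212 bases with AP002364.1.

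HSF2 (chromosome 6, 122399551 to 122433119) held 10.5, 11.3, 11.8 and 10.5 CPM in CTRL and 14.6, 13.1 and 9.12 CPM in DJL1. DJL1 replicates 1 and 2 were above all CTRL libraries and replicate 3 was below them. The log2 fold change was 0.15 ± 0.12 (SE, edgeR, adjusted p = 0.314). Without DJL1 replicate 3 HSF2 passed the test at 0.32 (adjusted p = 0.0066), and without DJL1 replicate 1 it was -0.0023 (adjusted p = 0.99), both by edgeR. The log2 ratio of HSF1 to HSF2 was 2.72 ± 0.09 (SD, n = 4) in CTRL and 2.41 ± 0.42 (SD, n = 3) in DJL1 (same exact permutation test, p = 0.286). HSF1 stood at 4.35, 4.65 and 7.40 times the level of HSF2 in DJL1, against 5.99 to 6.95 times in CTRL. These ratios come from log2 CPM with a prior count of 2.

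**Figure D3:**
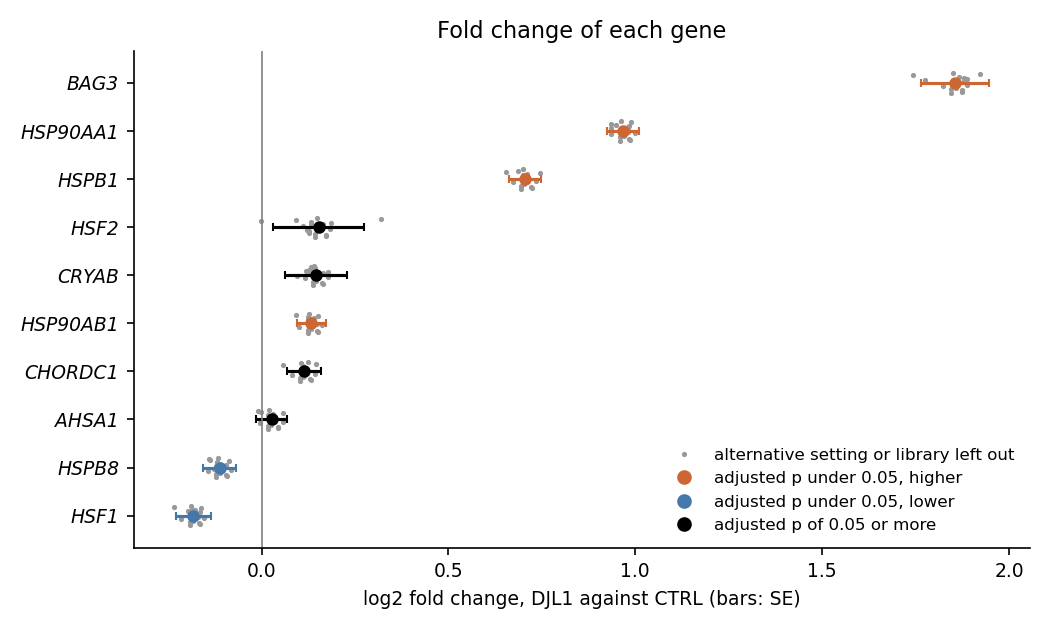
Log2 fold change of DJL1 against CTRL for the 10 genes (horizontal axis, bars are SE), coloured by the adjusted p, with each alternative or left-out library as a small grey point. BAG3, HSP90AA1 and HSPB1 lie at 1.86, 0.97 and 0.70 with all grey points well above 0, and HSF2 spans -0.0023 to 0.32 with the library left out.

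The authors' deposited table gives log2 fold changes that are 0.01 to 0.02 from these values for the 10 genes. Of the 10 genes, 6 in the authors' deposited table have an adjusted p under 0.05, with BAG3 (1.88), HSP90AA1 (0.98), HSPB1 (0.72), HSP90AB1 (0.15) and CHORDC1 (0.13) higher and HSF1 (-0.17) lower. CHORDC1 and HSPB8, the genes nearest the threshold, are those whose calls differ, with adjusted p of 0.0226 and 0.0594 in the authors' deposited table.

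Most of the abundant rows named as pseudogenes of these genes changed about as their parent did. Processed copies of an abundant RNA are nearly identical in sequence, so reads may be placed on either. The pseudogene rows held 6.24% to 6.55% of the summed counts of HSP90AA1 and its 5 named pseudogenes, 4.21% to 4.61% for HSP90AB1 and 6 pseudogenes, 5.11% to 6.0% for HSPB1 and 2, and 4.91% to 6.71% for CHORDC1 and 4. HSP90AA2P rose from 101 ± 6.97 to 194 ± 8.21 CPM, a log2 fold change of 0.95 ± 0.05. HSP90AA4P rose by 1.07 and HSP90AA3P by 1.11 on the log2 scale, against 0.97 for HSP90AA1. HSP90AB3P went from 121 ± 1.76 to 131 ± 2.81 CPM (0.12 ± 0.04, edgeR, adjusted p = 0.0153), close to the 0.13 of HSP90AB1. HSPB1P1 rose by 0.70, the value of HSPB1. HSP90AB2P, at 5.41 ± 0.21 and 4.29 ± 0.72 CPM, went the other way (-0.34 ± 0.13, edgeR, adjusted p = 0.0361). With the pseudogene counts added to the parent, a setting added once the data had been seen, HSP90AA1 had a log2 fold change of 0.96, and CHORDC1 passed the threshold (0.12, edgeR, adjusted p = 0.0326).

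**Figure D4:**
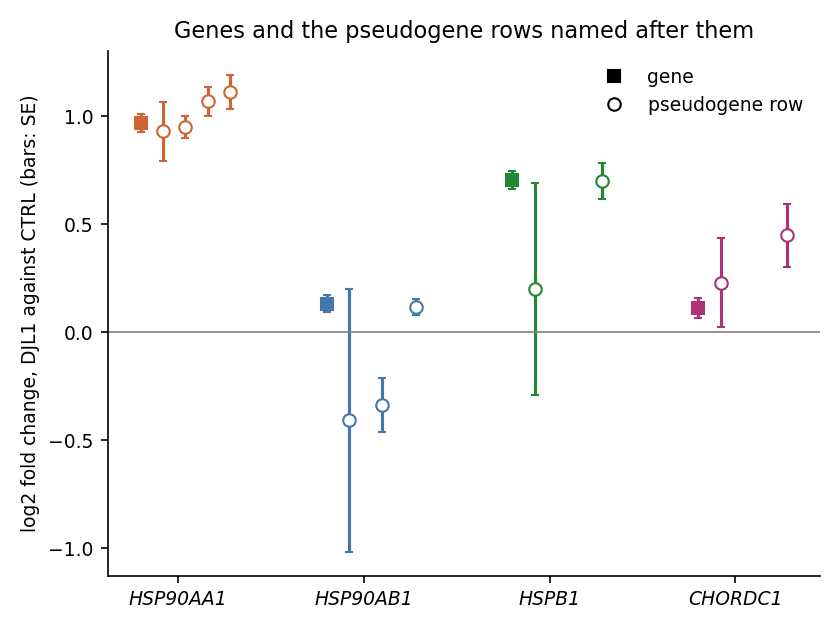
Log2 fold change (bars are SE) of 4 genes as filled squares and of their tested pseudogene rows as open circles. Rows named after HSP90AA1 lie between 0.93 and 1.11, beside 0.97 for the gene, while those named after HSP90AB1 lie between -0.41 and 0.12.

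Most genes that HSF1 is known to induce in heat-stressed cells rose in DJL1. Of 24 tested members of that list 20 were higher and 1 was lower, where 27.0% and 25.1% of all tested genes were, and the median log2 fold change was 0.54 against 0.01. The list overlaps the HSP90 cochaperone list in 3 genes. The 20 include HSPA1A (log2 fold change 2.37) and HSPA1B (2.36), named after their values were seen. Whether both count the same reads was not tested. The list was compiled with earlier results of these data known, so its direction is no independent evidence. The HSP110 gene HSPH1 rose from 265 ± 25.0 to 788 ± 66.3 CPM (log2 fold change 1.57 ± 0.07), its relative HSPA4L from 14.4 ± 1.57 to 43.6 ± 2.68 CPM (1.60 ± 0.08), and the collagen chaperone gene SERPINH1 from 367 ± 7.77 to 568 ± 16.8 CPM (0.63 ± 0.04). Named after their values were seen, the strongly heat-inducible HSP70 gene HSPA6 went from 89.1 ± 29.5 to 735 ± 149 CPM (3.05 ± 0.35, edgeR, adjusted p = 0.000886). DNAJB1, the HSP40 that feeds clients to HSP70, went from 226 ± 32.0 to 860 ± 115 CPM (1.93 ± 0.13). The 1 lower member was FKBP4, an HSP90 immunophilin (-0.14), and the 3 not called were HSPA4 (-0.11), HSPE1 (-0.07) and DEDD2 (0.04).

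CTRL replicate 2, the deepest library, had the lowest CTRL level for 16 of the 24 genes. DJL1 replicate 2 had the highest DJL1 level for 14 of 24. Of the 10 genes, CTRL replicate 2 was lowest for 3 and replicate 3 for 4. DJL1 replicate 2 was highest for 3 of the 10 and replicate 3 for 5. Such counts over all tested genes were not made. In CTRL replicate 2 HSPA6 stood at 46.5 CPM against 94.2 to 114 CPM in the other CTRL libraries, and BAG3 and HSP90AA1 were also lowest there. Without CTRL replicate 2 the log2 fold change of HSP90AA1 was 0.93. Without CTRL replicate 2 the list gave 19 higher and 1 lower, and without DJL1 replicate 2 it gave 20 higher and 1 lower. Without DJL1 replicate 1 or 3 it gave 19 higher and 2 lower, and DESeq2 also gave 2 lower. What sets these libraries apart was not tested.

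Genes of the HSP90 cycle itself went both ways. Of 24 tested cochaperones and client adaptors 8 were higher and 10 lower, with a median log2 fold change of -0.09, where 27.0% of all tested genes were higher and 25.1% lower. The median was -0.16 with 14 lower when DJL1 replicate 3 was left out, and -0.04 with 9 lower when replicate 2 was. AHSA2P, a transcribed relative of AHSA1, fell from 55.2 ± 0.51 to 30.7 ± 3.63 CPM (-0.84 ± 0.06 on the log2 scale), and TOMM34, a cochaperone for mitochondrial precursors, from 27.8 ± 0.53 to 21.2 ± 0.16 CPM (-0.39 ± 0.05). TSC1, which inhibits mTORC1 and also acts as an HSP90 cochaperone, rose from 52.1 ± 2.32 to 75.8 ± 2.92 CPM (0.54 ± 0.05). Named after their values were seen, STIP1, the HOP adaptor that hands clients from HSP70 to HSP90, rose by 0.16 and the kinase adaptor CDC37 fell by 0.17 on the log2 scale. HSP90 genes of other compartments split. HSP90B1, the endoplasmic reticulum form, rose from 1106 ± 30.2 to 1760.3 ± 59.4 CPM (0.67 ± 0.04), and TRAP1, the mitochondrial form, fell from 104 ± 2.69 to 76.0 ± 6.62 CPM (-0.46 ± 0.05).

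None of the other BAG genes was called higher, and few of the other small heat shock protein genes were. Of 5 BAG genes 0 were higher and 4 lower, where 27.0% of all tested genes were higher and 25.1% lower, with a median log2 fold change of -0.19, and 0 were higher at an unadjusted p under 0.05 in edgeR, by DESeq2 or by limma-voom. BAG6, which guards the synthesis of membrane proteins, fell from 1541 ± 24.6 to 1253 ± 72.7 CPM (-0.30 ± 0.04), and BAG5 and BAG4 had log2 fold changes of -0.24 and -0.19. Of the 7 other tested small heat shock protein genes 1 was higher and 2 lower, near those shares of all genes, with a median log2 fold change of -0.38. HSPB11, whose log2 fold change is that median, fell from 9.62 ± 0.47 to 7.43 ± 1.77 CPM, with the groups overlapping. HSPB7 (0.81 to 0.32 CPM) and HSPB6 (1.99 to 2.73 CPM) lay at low levels. The 1 higher gene, HSPB6, was near the threshold (edgeR, adjusted p = 0.0488), and DESeq2 and limma-voom called 0 higher. Without DJL1 replicate 1 that list gave 2 higher and 1 lower, and its median was 0.02.

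A list of genes for BAG3 in chaperone-assisted selective autophagy and for autophagy more widely gave 7 of 10 higher and 1 lower. Its median log2 fold change was 0.24, where 27.0% of all tested genes were higher and 25.1% lower. It shares HSPA8 with the heat-induced targets of HSF1 and STUB1 with the HSP90 cochaperones. Without DJL1 replicate 2 the list gave 7 higher and 2 lower, and without replicate 3 it gave 6 higher and 2 lower. Leaving out DJL1 replicate 1 or any single CTRL library gave 6 higher and 1 lower. This list too was compiled with earlier results of these data known. MAP1LC3B, the membrane-bound autophagy protein LC3B, rose from 82.8 ± 1.74 to 132 ± 8.77 CPM (0.68 ± 0.05), the HSP40 gene DNAJB2 from 76.0 ± 2.41 to 117 ± 6.17 CPM (0.62 ± 0.04), and HSPA8, the constitutive HSP70, from 1863 ± 18.1 to 2192 ± 23.4 CPM (0.23 ± 0.03). HDAC6 was the lower member (-0.32), and the ubiquitin ligase gene STUB1 (-0.05) and SYNPO2 (-0.22) were not called. Of 7 tested heat shock factors and regulators other than HSF1 and HSF2, 5 were higher and 0 lower, with a median log2 fold change of 1.16, against the same 27.0% and 25.1%. The 5 include HSFX1 and HSFX2, which may count the same reads, HSF5 at 0.12 CPM in CTRL and HSBP1L1 at 1.40 CPM. All 5 had a CTRL mean of no more than 2.53 CPM, so the count of higher genes rests on low levels. DESeq2, limma-voom and edgeR at an unadjusted p under 0.05 also gave 0 lower in that list. HSF4, a factor of the lens, rose from 2.53 ± 0.33 to 5.64 ± 0.87 CPM (1.16 ± 0.15). HSFX1 and HSFX2, near-identical X-linked copies, stood at 0.97 and 0.94 CPM in CTRL and 3.17 and 2.90 CPM in DJL1. HSBP1, a negative regulator of HSF1, stood at 81.3 ± 1.54 and 83.9 ± 3.67 CPM (0.05 ± 0.04, edgeR, adjusted p = 0.385).

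**Figure D5:**
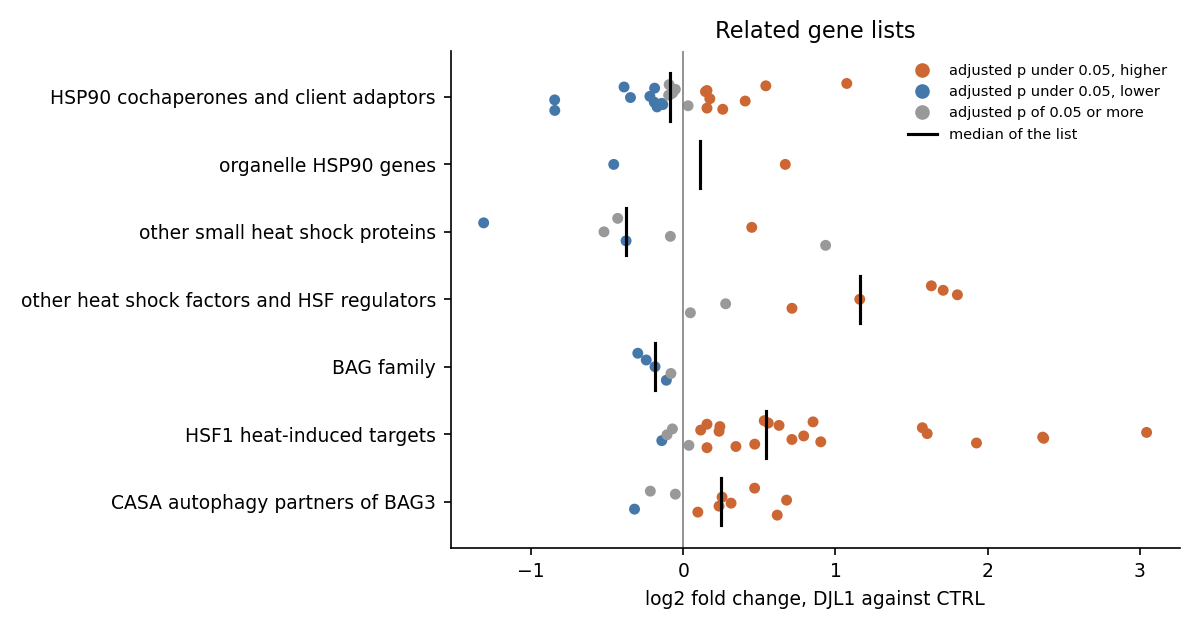
Log2 fold change (horizontal axis) of every tested gene of 7 related lists, coloured by the adjusted p, with a black line at the median of each list. The heat-induced targets of HSF1 reach 3.05, while the BAG genes other than BAG3, which is not plotted, lie wholly below 0.

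Genes with the most similar course over the 7 libraries were sought by Pearson correlation of log2 CPM among 13181 genes of at least 5 CPM. Nearest to BAG3 were OSBPL3, GPR157 and BTG2, nearest to HSP90AA1 were ANKRD11, FBXW7 and FN1, and nearest to HSPB1 were MAP3K1, CAPN12 and MMP2 (each r = 1.00 after rounding). For HSF1 they were ZBTB12, SNRNP70 and PACSIN3 (r = 0.99 for each). These correlations describe 7 libraries in 2 groups of different depth, where any gene that differs mainly by group scores high.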

How the data were processed

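RNA was measured by poly(A) sequencing of 7 libraries, CTRL (n = 4) and DJL1 (n = 3), grouped by sample title. The authors deposited raw counts per gene symbol, per the file headers. featureCounts (Subread 1.5.0), HISAT2 2.2.1, Trim Galore 0.4.0 and the builds GRCh38 and hg38 are listed, with no role, per the submitters' processing notes. The authors' deposited table gives a log2 fold change and an adjusted p-value for each of 20199 genes, and its t and log odds scores, also deposited, were not used. A deposited log table, whose transform is not given in the sources used here, was not used.

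Of 59251 rows, 26062 passed filterByExpr (minimum count 10, minimum total 15). They were scaled by TMM and tested with edgeR 4.0.16 (R 4.3.3, robust quasi-likelihood, 2-sided, Benjamini-Hochberg at 0.05). The script was tested on simulated data with the same spread in both groups, unlike the libraries here. CPM uses the TMM-scaled library size, and log2 CPM has a prior count of 2. SE is the log2 fold change divided by the square root of F. DESeq2 1.42.0, limma-voom (limma 3.58.1), other scalings and filters, thinning and left-out libraries were alternatives. Replicate numbers did not pair libraries (r of deviations -0.04 to -0.01). Gene positions are RefSeq (GRCh38.p14), and lengths and exon overlaps GENCODE 29. The named genes are the 10 members, up to 3 of each related list by smallest adjusted p, and the 3 most similar genes of some members. Others are said in the text to be named after their values were seen, or complete a count. The members and lists were chosen with earlier results of these data known. Markers tested were those of pluripotent, fibroblast, muscle, trophectoderm and lens cells.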

Additional observations from a re-analysis of the deposited data

Results flagged for a closer look

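BAG3 in CTRL replicate 2 stood at 27.9 CPM, away from the other CTRL libraries at 34.9 to 35.6 CPM, by Dixon's test (gap over range 0.912). Of 32 genes and ratios examined in CTRL, 1 was marked in this way, and chance marks about 5% of such groups. Without that library the log2 fold change of BAG3 was 1.77 in place of 1.86.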

How the results depend on the processing

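BAG3, HSP90AA1, HSPB1 and HSF1 kept their direction and their call in all 19 alternatives, with log2 fold changes of 1.74 to 1.92, 0.93 to 1.00, 0.65 to 0.74 and -0.23 to -0.15. CRYAB was called in none of them. The count of lower genes among the 10 was 1 in place of 2 with upper quartile factors, library size alone, limma-voom with a variance for each group, a filter of 1 CPM in at least 3 libraries, a threshold of 0.01 and the replicate block, and ran from 1 to 2 over the libraries left out. HSPB8 was the gene lost, and the cause was not tested. HSF2 gave -0.0023 with DJL1 replicate 1 left out, and at most 0.32, with replicate 3 left out. AHSA1 turned to -0.0047 with no filter, -0.0014 without DJL1 replicate 2 and -0.0085 without DJL1 replicate 3, and was at most 0.058, without DJL1 replicate 1. With the replicate number as a block, 3 genes were higher and 1 lower, HSP90AB1 lost its call (adjusted p = 0.0629, edgeR), 17 heat-induced targets were higher, and 5863 and 5614 of all tested genes were higher and lower. With absolute differences in place of the doubled tail, the HSP90 ratio difference of 0.84 had an exact permutation p of 0.0286 in place of 0.0571, and that of HSF1 to HSF2 0.257 in place of 0.286. Depth and group cannot be told apart; thinning all libraries to the smallest total kept the counts of higher and lower genes within 1.5 times for the 10 genes and for all tested genes, while the other small heat shock proteins went from 1 higher to 0.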
